A study of Mus musculus with 30 samples.

Results

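The 51 genes described here lie in one stretch of mouse chromosome 2, from *Thbs1* to *Ccndbp1*, with 47 other annotated genes among them. They form the proximal part of the stretch from *Thbs1* to *Plcb1* that stands for the piece of 129P2 chromosome carried by *Mertk*-/-V1 mice. They were picked by symbol, as the rows of the deposited RPE and BMDM tables whose gene name was on a list. They are 51 of the 55573 genes in those tables. The rule used no measured value directly, but the list was drawn up with earlier results of these data known. The study names *Thbs1* and *Plcb1*, the ends of the stretch, as genes differentially expressed in *Mertk*-/-V1 BMDMs. *Tyro3* and *Chac1*, which lie in the stretch, were left out. In GRCm38 the 51 genes run from base 118111876 to base 121016904 of chromosome 2, which is 2.91 Mb of the 17.36 Mb between *Thbs1* and *Plcb1*. All 51 are annotated as protein-coding, 27 on the plus strand and 24 on the minus strand.

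RNA of the retinal pigment epithelium (RPE) and of bone marrow-derived macrophages (BMDMs) was sequenced from B6 wild-type mice and from 3 lines of *Mertk* knockout mice, 30 libraries in all. RPE was shaken off the eyecup of mice at P25 in 6 B6 WT and 6 *Mertk*-/-V1 libraries and in 3 libraries of each of the other knockouts, *Mertk*-/-V2 and *Mertk*-/-V3. BMDMs were grown for 7 days from the marrow of adult mice in medium conditioned by L929 cells, with 3 libraries for each genotype. B6 WT mice were C57BL/6, and the labels give C57BL/6J as the strain of every sample. *Mertk*-/-V1 mice were made in 129P2 embryonic stem cells. They lack exon 17 of *Mertk*, still hold a neomycin cassette in the locus, were backcrossed to C57BL/6J, and are homozygous for 129P2 alleles over the segment around *Mertk*. *Mertk*-/-V2 mice lack exon 18, which was removed in the germline by a tamoxifen-induced Cre that was then bred out. Their floxed parents came from C57BL/6NJ embryos. *Mertk*-/-V3 mice lack exons 3 and 4 after CRISPR/Cas9 injection into C57BL/6NJ eggs. By the study's microsatellites chromosome 2 is B6 throughout in *Mertk*-/-V2 and *Mertk*-/-V3 mice. All 3 knockouts therefore lack *Mertk*, and only *Mertk*-/-V1 mice carry 129P2 copies of the 51 genes. Each knockout is 1 line, so the 129P2 alleles, the cassette and any other difference left between the lines cannot be told apart.

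A gene targeted in stem cells of one strain stays linked to the neighbouring DNA of that strain through many backcrosses, because few crossovers fall close to it. The strains differ at many bases in such a segment, and a variant in a promoter, enhancer or splice site can alter the RNA of the gene copy it sits beside, which is called an effect in cis. An effect in cis can differ between cell types, since each cell type uses its own enhancers. RPE cells nourish photoreceptors and engulf the tips they shed, and macrophages engulf dead cells. Both use MERTK, the product of *Mertk*, as a receptor for that task.

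The promoters of 4 members are shown first, because *Exd1*, *Gchfr* and *Ivd* were the members called in both tissues in *Mertk*-/-V1 and *Haus2* was the member whose difference between the tissues held under every setting tried. Each window runs from 250 bases before to 50 bases after the gene's start in RefSeq on GRCm38.p6, is written 5′ to 3′ on the strand of the gene, and is the reference sequence rather than the 129P2 sequence. The windows are chr2:119547578-119547877 on the minus strand for *Exd1*, chr2:119167538-119167837 on the plus strand for *Gchfr*, chr2:118861744-118862043 on the plus strand for *Ivd* and chr2:120609132-120609431 on the plus strand for *Haus2*. Capitals mark matches on either strand to GGGCGG, the core of a binding site of SP1, and to CCAAT, the box bound by NF-Y.
Exd1: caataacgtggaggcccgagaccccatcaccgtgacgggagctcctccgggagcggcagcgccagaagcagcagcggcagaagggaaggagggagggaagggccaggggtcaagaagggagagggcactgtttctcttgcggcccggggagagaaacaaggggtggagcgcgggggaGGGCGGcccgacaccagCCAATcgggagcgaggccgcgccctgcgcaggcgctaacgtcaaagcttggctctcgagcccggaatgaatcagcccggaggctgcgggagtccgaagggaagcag
Gchfr: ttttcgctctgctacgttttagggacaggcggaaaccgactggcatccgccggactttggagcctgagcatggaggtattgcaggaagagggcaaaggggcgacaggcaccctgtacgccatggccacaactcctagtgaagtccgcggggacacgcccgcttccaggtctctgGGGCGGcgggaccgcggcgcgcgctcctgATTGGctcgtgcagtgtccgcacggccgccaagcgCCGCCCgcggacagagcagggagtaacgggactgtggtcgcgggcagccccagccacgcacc
Ivd: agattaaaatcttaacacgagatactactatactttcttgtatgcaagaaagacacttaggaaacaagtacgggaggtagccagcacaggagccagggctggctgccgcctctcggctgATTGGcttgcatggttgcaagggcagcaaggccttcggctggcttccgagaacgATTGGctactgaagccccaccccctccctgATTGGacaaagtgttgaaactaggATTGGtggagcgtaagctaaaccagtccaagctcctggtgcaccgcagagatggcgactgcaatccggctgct
Haus2: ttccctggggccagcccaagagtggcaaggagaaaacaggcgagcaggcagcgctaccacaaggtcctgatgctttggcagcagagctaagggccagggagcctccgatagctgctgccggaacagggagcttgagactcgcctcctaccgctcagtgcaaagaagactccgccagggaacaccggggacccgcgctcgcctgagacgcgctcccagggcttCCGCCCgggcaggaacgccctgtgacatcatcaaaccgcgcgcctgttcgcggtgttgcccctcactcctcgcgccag

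The *Ivd* window held 4 CCAAT matches, all on the opposite strand, at -131, -77, -47 and -23 from the start, and no GGGCGG. *Gchfr* held GGGCGG at -76 and -12 and CCAAT at -47. *Exd1* held GGGCGG at -73 and CCAAT at -56, and *Haus2* held 1 GGGCGG at -28. RefSeq windows were matched for 47 of the 51 members, all but *Thbs1*, *Fsip1*, *Disp2* and *Vps39*. Their median GC content was 61.7%, against 52.7% over all 32817 windows, and they held a median of 20 CpGs against 7. GGGCGG was in 35 of the 47 windows (74.5%), against 35.6% of all windows. CCAAT was in 19 (40.4%) against 37.4%. TATAAA was in 1, that of *Tmem62* (2.13% against 13.6%). CACGTG was in 1, that of *Chst14* (2.13% against 7.15%), and TGACGTCA was in 0 against 1.79%. Overlap between different motifs was allowed. The background was every RefSeq window, not matched to the members by gene type or GC content. For *Cdan1*, *Capn3*, *Ltk* and *Bahd1* the RefSeq start lay 118611, 7574, 1906 and 1238 bases from the GENCODE start. The windows of *Exd1* and *Chp1* overlap, as do those of *Dnajc17* and *Zfyve19*, so shared bases count for both genes of a pair. These counts describe the letters of the windows and were not tested.

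Reads on genes numbered 14137666 to 34124049 per library in RPE and 16629659 to 25653814 in BMDMs. The values are the authors' normalised read counts, which are reads divided by 1 size factor per library. *Mertk* itself, at 2638 to 3924 normalised counts in B6 WT RPE, stood at 919 to 1717 in *Mertk*-/-V1 RPE and 444 to 1106 in *Mertk*-/-V3 RPE, both below every B6 WT library. The libraries labelled *Mertk*-/-V2 held 3565 to 5311, so the count of the whole gene does not show the loss of exon 18 and checks nothing there. The summed level of 9 RPE markers was 212492 to 883829 in RPE libraries and 22.8 to 54.0 in BMDMs, where *Rpe65*, *Lrat*, *Ttr* and *Tyrp1* were at 0. That of 6 macrophage markers was 240637 to 261759 in BMDMs and 5285 to 12437 in RPE. Rod photoreceptor markers (8 genes) summed to 30263 to 811679 in RPE and to 15.6 to 38.3 in BMDMs. The highest rod sums were those of *Mertk*-/-V1 replicates 5 (811679) and 6 (486615) and *Mertk*-/-V3 replicate 1 (383605), which also had the lowest RPE marker sums, at 280235, 212492 and 297553. RPE results are therefore given with and without these 3 libraries where they matter. In RPE the sums were 1528 to 5699 for endothelium markers, 12722 to 36198 for fibroblast, 7.29 to 1044 for neutrophil and 141 to 341 for dendritic cell markers. In BMDMs they were 255 to 332, 0 to 4.5, 291 to 421 and 9.40 to 26.7. Of all these markers 1, the macrophage gene *Fcgr1*, was called in any comparison, in *Mertk*-/-V1 RPE, where it rose by 1.13 on the log2 scale. In tissue samples fewer cells of a type and less RNA per cell cannot be told apart.

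A gene was called where limma gave an adjusted p under 0.05 after Benjamini-Hochberg adjustment over all genes tested, on the log2 of the normalised count plus 1. It counted as a differentially expressed gene (DEG) if its log2 fold change also reached 1.25 in either direction, the thresholds of the study. Genes with a mean under 10 normalised counts in a tissue were not tested there. That left 49 members in RPE, without *Fsip1* and *Ppp1r14d*, and 41 in BMDMs, without *Fsip1*, *Pak6*, *Disp2*, *Ppp1r14d*, *Spint1*, *Dll4*, *Itpka*, *Ltk*, *Pla2g4e* and *Capn3*. Fold changes are on that log2 scale, which understates the change of weakly expressed genes.

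In *Mertk*-/-V1 BMDMs 17 of the 41 members tested were called against B6 WT, 12 higher and 5 lower, which is 41.5%, where 7.07% of all 13420 genes tested were called. The median size of the log2 fold change was 0.23 for the members and 0.12 for all genes. The DEGs among them were *Gchfr*, *Exd1*, *Gpr176*, *Rhov* and *Thbs1*, so 5 of 41, where 0.425% of all genes were DEGs. In *Mertk*-/-V1 RPE 4 of the 49 members tested were called against B6 WT, *Gchfr*, *Exd1* and *Itpka* higher and *Ivd* lower, which is 8.16%, where 0.388% of all 18832 genes were called. The first 3 were DEGs, where 0.149% of all genes were. With the replicate number as a block, 5 of 49 members (10.2%) were called in this RPE comparison, with *Chp1* added as lower, where 131 of 18832 genes (0.696%) were. An unadjusted p under 0.05 in limma was reached by 17 of 49 members in RPE, beside 1283 of 18832 genes. In BMDMs it was reached by 24 of 41, beside 3164 of 13420 genes. Of these members 13 in RPE and 7 in BMDMs were not called. The signed median was 0.10 for the members in RPE (0.02 for all genes) and 0.08 in BMDMs (-0.0047 for all genes). Without the 3 RPE libraries richest in rod RNA, 5 of 49 members (10.2%) were called in *Mertk*-/-V1 RPE against B6 WT. Of all genes 106 of 18665 (0.568%) were called there. *Ehd4* was then called, as higher (log2 fold change 0.45, limma adjusted p = 0.0472), and *Itpka* was not (adjusted p = 0.0661).

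**Figure D1:**
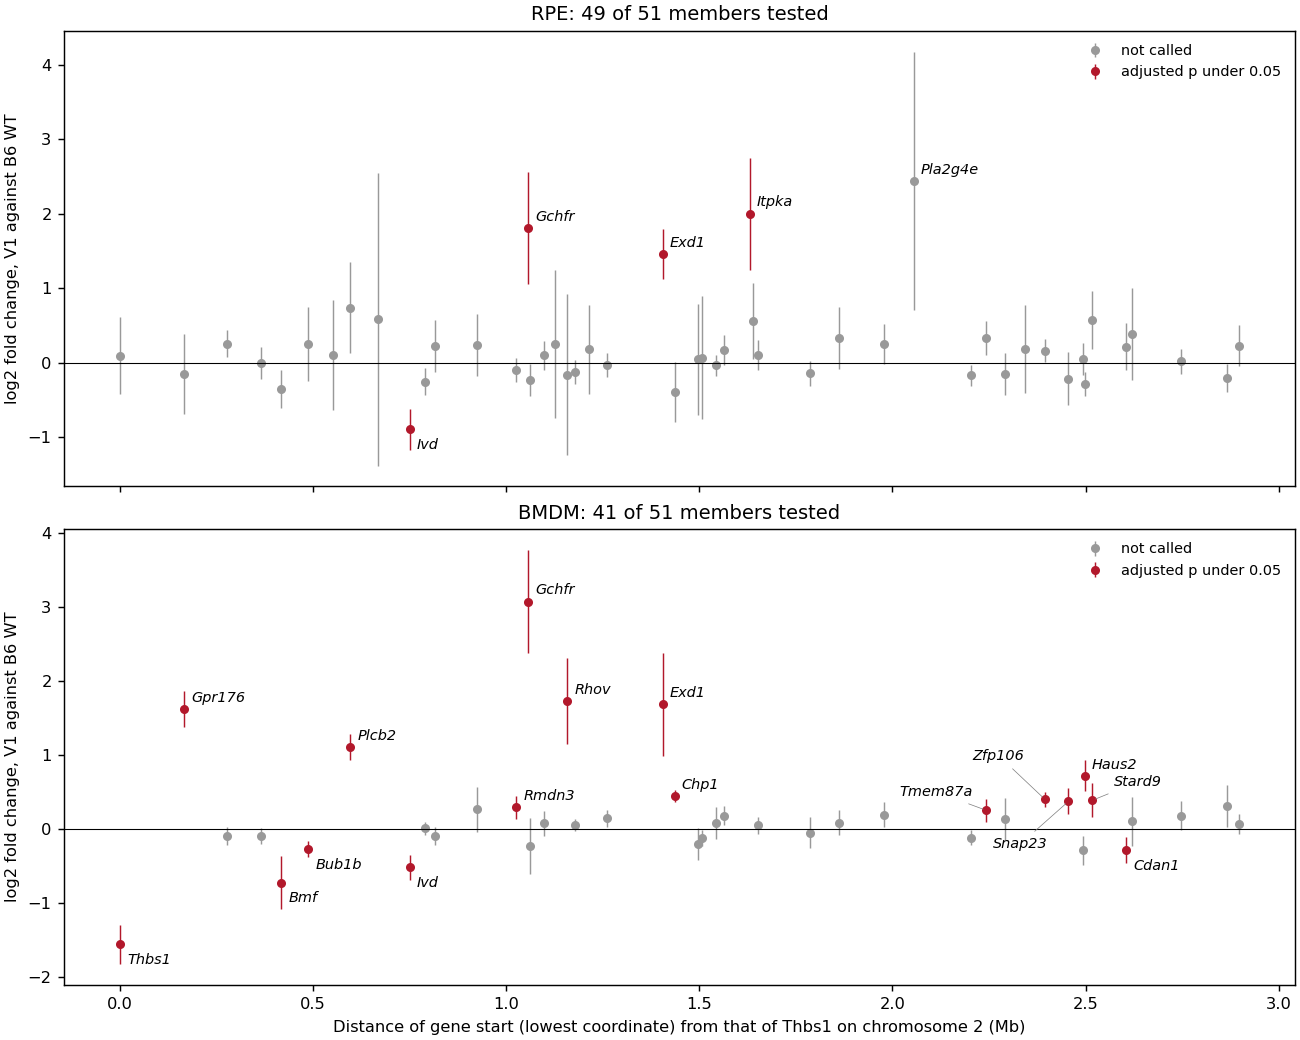
Log2 fold change of *Mertk*-/-V1 against B6 WT (points, with the 95% confidence interval as bars) for the 49 members tested in RPE (top) and the 41 tested in BMDMs (bottom), by the distance in Mb of each gene's lowest coordinate from that of *Thbs1* on chromosome 2. Red points were called at an adjusted p under 0.05: 4 in RPE and 17 in BMDMs, where they were spread from *Thbs1* at one end to *Cdan1* near the other.

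*Mertk*-/-V1 was also compared with the mean of the other 2 knockouts, lines that lack *Mertk* but carry B6 copies of the members. In BMDMs 15 of 41 members were called, 12 higher and 3 lower (36.6%), where 0.991% of all genes were called. The same 5 members were DEGs, where 0.194% of all genes were. In RPE 3 of 49 were called (6.12%), *Gchfr* and *Exd1* higher and *Ivd* lower, where 0.207% of all genes were called. *Gchfr* and *Exd1* were DEGs there, where 0.0956% of all genes were. Without the 3 RPE libraries richest in rod RNA 7 members were called in this RPE comparison, beside 701 of 18665 genes. *Bub1b*, *Ehd4*, *Spint1* and *Tmem87a* were those added, all higher. In BMDMs 9 were called without *Mertk*-/-V1 replicate 3, beside 74 of 13421 genes.

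Among members of metabolism and mitochondria (*Gchfr*, *Ivd*, *Ndufaf1*, *Ganc*, *Chst14* and *Rmdn3*), *Gchfr* rose most in BMDMs. Its product, the GTP cyclohydrolase feedback regulator, binds the first enzyme of tetrahydrobiopterin synthesis. *Gchfr* (ENSMUSG00000046814, bases 119167773 to 119172390) had 14.8, 15.5 and 11.7 normalised counts in B6 WT BMDMs and 134, 122 and 117 in *Mertk*-/-V1. It had 17, 26.2 and 8.55 in *Mertk*-/-V2 and 9.83, 12.8 and 12.9 in *Mertk*-/-V3. Every *Mertk*-/-V1 library lay above every other BMDM library, at a log2 fold change of 3.07 against B6 WT (SE 0.32, adjusted p = 0.000108 from limma, 8.39-fold) and of 3.10 against the other knockouts (adjusted p = 2.05e-05). In RPE *Gchfr* ran from 14.8 to 40.1 in B6 WT (median 22.1) and from 32.8 to 164 in *Mertk*-/-V1 (median 96.7). It was at 9.67, 17 and 26.7 in *Mertk*-/-V2 and at 11.2, 11.2 and 15.4 in *Mertk*-/-V3. The *Mertk*-/-V1 and B6 WT ranges overlapped in 1 library, *Mertk*-/-V1 replicate 5 at 32.8, and the log2 fold change was 1.81 (SE 0.35, adjusted p = 0.0303). Against the other knockouts it was 2.43 (adjusted p = 0.00426) with no overlap. The call against B6 WT was lost without any one of *Mertk*-/-V1 replicates 1 to 4 or B6 WT replicates 2 to 6, and without the 3 libraries richest in rod RNA the log2 fold change was 2.26 (adjusted p = 0.00450).

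**Figure D2:**
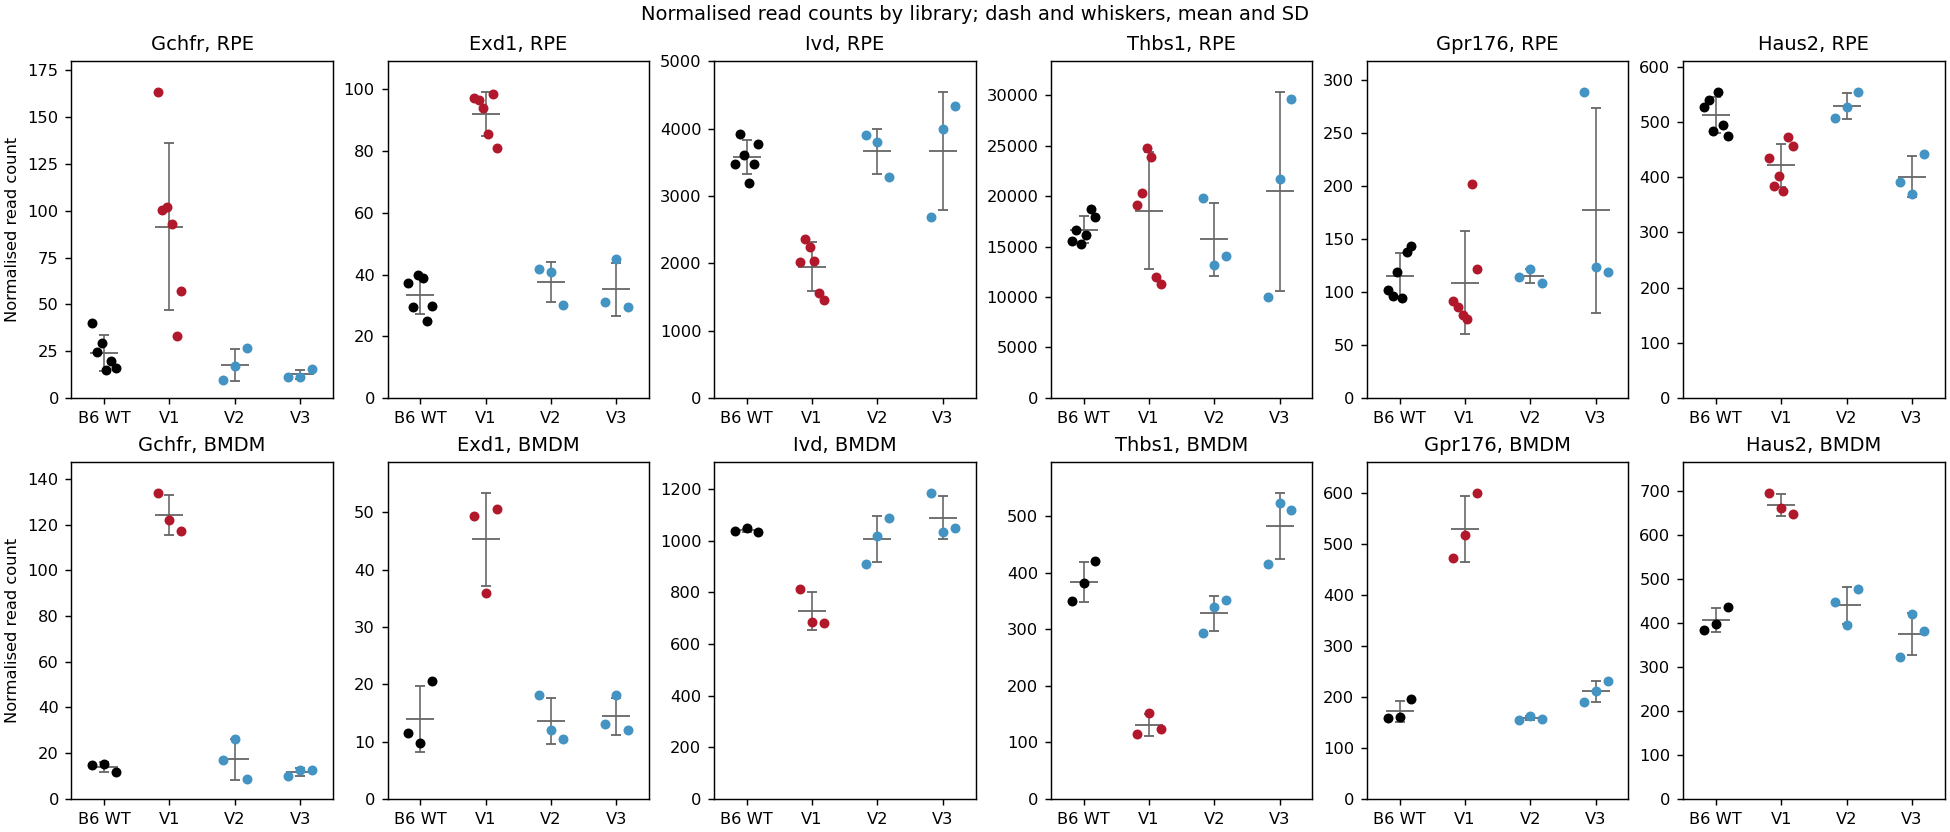
Normalised read counts of *Gchfr*, *Exd1*, *Ivd*, *Thbs1*, *Gpr176* and *Haus2* in each library of RPE (top; 6 B6 WT, 6 V1, 3 V2 and 3 V3) and BMDMs (bottom; 3 of each), with a dash for the mean and whiskers for the SD, on linear axes that start at 0 and differ between panels. *Gchfr* and *Exd1* were higher and *Ivd* lower in *Mertk*-/-V1 in both tissues, while *Thbs1*, *Gpr176* and *Haus2* stood apart in *Mertk*-/-V1 BMDMs and were not called in RPE.

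*Ivd* encodes isovaleryl-CoA dehydrogenase, a mitochondrial enzyme of leucine breakdown, and was the only member called lower in both tissues. *Ivd* (ENSMUSG00000027332, bases 118861954 to 118882909) ran from 3195 to 3913 in B6 WT RPE (median 3546) and from 1457 to 2354 in *Mertk*-/-V1 RPE (median 2033). It was at 3906, 3801 and 3279.9 in *Mertk*-/-V2 and at 2681, 4000.3 and 4337 in *Mertk*-/-V3. All 6 *Mertk*-/-V1 libraries lay below all 12 others, and *Ivd* fell by 0.90 on the log2 scale against B6 WT (SE 0.13, adjusted p = 0.00351) and by 0.92 against the other knockouts (adjusted p = 0.00341). Without the 3 libraries richest in rod RNA it fell by 0.72 (adjusted p = 0.000424). In the same comparison the 9 RPE markers had a median log2 fold change of -0.66 (0 of 9 called), and their summed level was 212492 to 655328 in *Mertk*-/-V1 RPE (median 491017) against 533681 to 883829 in B6 WT (median 693670). Their part in the *Ivd* value was not tested. In BMDMs it had 1036, 1047 and 1035 in B6 WT and 812, 687 and 683 in *Mertk*-/-V1, beside 909.8, 1018 and 1088 in *Mertk*-/-V2 and 1185, 1034 and 1048 in *Mertk*-/-V3. Here too every *Mertk*-/-V1 library was below the rest, with a fall of 0.52 (SE 0.08, adjusted p = 0.00217). *Rmdn3*, which tethers mitochondria to the endoplasmic reticulum, rose by 0.29 in *Mertk*-/-V1 BMDMs, from 382, 438 and 401 to 476, 516 and 501 (adjusted p = 0.0329). *Rmdn3* was no longer called there without any one *Mertk*-/-V1 library or without B6 WT replicate 1 or 3. *Ndufaf1*, *Ganc* and *Chst14* were called in no comparison.

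Among the members that act in the nucleus or on RNA (*Exd1*, *Ino80*, *Rtf1*, *Mga*, *Bahd1*, *Rpap1*, *Rpusd2*, *Zfp106*, *Cdan1*, *Dnajc17* and *Ccndbp1*), *Exd1* was called in both tissues. Its product belongs to the piRNA machinery of germ cells. *Exd1* (ENSMUSG00000048647, bases 119516505 to 119547627) ran from 24.9 to 39.8 in B6 WT RPE (median 33.6) and from 81.0 to 98.4 in *Mertk*-/-V1 RPE (median 95.4), beside 41.9, 40.7 and 30.1 in *Mertk*-/-V2 and 31.2, 44.9 and 29.3 in *Mertk*-/-V3. In BMDMs it had 11.5, 9.78 and 20.5 in B6 WT and 49.3, 36.0 and 50.6 in *Mertk*-/-V1, beside 18.2, 12.1 and 10.4 in *Mertk*-/-V2 and 13.1, 18.1 and 12.1 in *Mertk*-/-V3. In each tissue every *Mertk*-/-V1 library lay above every other library. The log2 fold change against B6 WT was 1.46 in RPE (SE 0.16, adjusted p = 0.000218) and 1.68 in BMDMs (SE 0.32, adjusted p = 0.00881). Against the other knockouts it was 1.33 in RPE (adjusted p = 0.000429) and 1.64 in BMDMs (adjusted p = 0.00840). The levels were low, so few reads stand behind each value.

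*Zfp106*, a zinc finger protein that binds RNA, had 4283, 4061 and 4271 in B6 WT BMDMs and 5516, 5897 and 5237 in *Mertk*-/-V1. It rose by 0.40 (SE 0.05, adjusted p = 0.000254). The *Mertk*-/-V2 and *Mertk*-/-V3 libraries, at 4259 to 4645, all lay below every *Mertk*-/-V1 library. *Cdan1*, which encodes codanin-1, fell by 0.29 in BMDMs, from 579.6, 527 and 486 to 444, 436 and 422 (adjusted p = 0.0460), and was not called against the other knockouts (adjusted p = 0.139). The *Cdan1* call was lost without any one *Mertk*-/-V1 library or without B6 WT replicate 1 or 2. *Rtf1*, a subunit that works with the PAF1 complex in transcription, was at 1610.1, 1572 and 1632 in *Mertk*-/-V1 BMDMs and at 1243 to 1464 in all others. It rose by 0.26 against the other knockouts (adjusted p = 0.0179), and its log2 fold change against B6 WT was 0.18 (adjusted p = 0.0754). None of these 3 was called in RPE in any of the comparisons.

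Among secreted and receptor proteins (*Thbs1*, *Gpr176*, *Disp2*, *Spint1*, *Dll4* and *Ltk*) 2 were tested in BMDMs and both were DEGs in *Mertk*-/-V1, in opposite directions. *Thbs1* encodes thrombospondin-1, a secreted matrix glycoprotein that binds CD36 and CD47. *Thbs1* (ENSMUSG00000040152, bases 118111876 to 118127133) had 350.2, 381 and 420.1 in B6 WT BMDMs and 115, 152 and 124 in *Mertk*-/-V1, beside 294, 339.9 and 352 in *Mertk*-/-V2 and 415, 522 and 510.2 in *Mertk*-/-V3. The *Mertk*-/-V1 libraries lay below all others, and *Thbs1* fell by 1.56 against B6 WT (SE 0.12, adjusted p = 7.00e-06) and by 1.61 against the other knockouts (adjusted p = 8.88e-07). Per kilobase of exon *Thbs1* was the highest member in B6 WT RPE, at a mean of 2747.5 normalised counts per kilobase. In that tissue it ran from 15205 to 18684 in B6 WT and from 11280.5 to 24787 in *Mertk*-/-V1, which enclosed the B6 WT range, at a log2 fold change of 0.09 (95% interval -0.43 to 0.61, adjusted p = 0.954).

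*Gpr176* (ENSMUSG00000040133, bases 118277110 to 118373419), an orphan receptor coupled to G proteins, had 159, 161 and 196 in B6 WT BMDMs and 473, 517 and 601 in *Mertk*-/-V1. *Mertk*-/-V2 stood at 155, 163 and 158 and *Mertk*-/-V3 at 191, 211 and 231. *Gpr176* rose by 1.62 against B6 WT (SE 0.11, adjusted p = 2.95e-06) and by 1.52 against the other knockouts (adjusted p = 7.39e-07), with no overlap with any other BMDM library. In RPE it ran from 94.4 to 143 in B6 WT and from 74.8 to 202 in *Mertk*-/-V1, at a log2 fold change of -0.15 (adjusted p = 0.913). The highest RPE values were 202 in *Mertk*-/-V1 replicate 5 and 289 in *Mertk*-/-V3 replicate 1, both among the libraries richest in rod RNA, and without those libraries the log2 fold change was -0.46 (adjusted p = 0.268). The part of rod RNA in these values was not tested. *Disp2*, *Spint1*, *Dll4* and *Ltk* were tested in RPE alone and were not called by plain limma with all libraries. Without the 3 libraries richest in rod RNA *Spint1* was called, as higher, against the other knockouts.

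Members of signalling inside the cell (*Plcb2*, *Itpka*, *Pla2g4e*, *Rhov*, *Pak6*, *Chp1*, *Ppp1r14d* and *Mapkbp1*) gave 3 calls among the 4 tested in *Mertk*-/-V1 BMDMs, all higher. *Plcb2* encodes phospholipase C beta 2, which cleaves a membrane lipid to inositol trisphosphate and diacylglycerol. *Plcb2* (ENSMUSG00000040061, bases 118707517 to 118728438) had 670.0, 742 and 831 in B6 WT BMDMs and 1656, 1648 and 1513 in *Mertk*-/-V1, beside 949.8, 909 and 814 in *Mertk*-/-V2 and 801, 789.9 and 873 in *Mertk*-/-V3. All *Mertk*-/-V1 libraries lay above the rest, and the rise was 1.11 against B6 WT (SE 0.08, adjusted p = 3.44e-06) and 0.91 against the other knockouts (adjusted p = 4.30e-06). In RPE, where *Plcb2* was weak (9.33 to 30.1 in B6 WT, 19.9 to 51 in *Mertk*-/-V1), the log2 fold change was 0.74 (adjusted p = 0.603).

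*Rhov* (ENSMUSG00000034226, bases 119269201 to 119271272), an atypical small GTPase, had 28.8, 31.8 and 36.1 in B6 WT BMDMs and 105, 115 and 106 in *Mertk*-/-V1, beside 43.7, 37.3 and 55.1 in *Mertk*-/-V2 and 19.7, 30.9 and 49.0 in *Mertk*-/-V3. It rose by 1.72 (SE 0.27, adjusted p = 0.00246) and by 1.51 against the other knockouts (adjusted p = 0.00385), with every *Mertk*-/-V1 library above the rest. In RPE it varied widely within every genotype, from 137 to 1033 in B6 WT alone, and the log2 fold change was -0.16 (SE 0.51, adjusted p = 0.959). *Chp1* (ENSMUSG00000014077, bases 119547697 to 119587027), a calcium-binding partner of sodium-proton exchangers, had 2209.8, 2209 and 2232 in B6 WT BMDMs and 3028, 2964 and 3049 in *Mertk*-/-V1. It rose by 0.44 (SE 0.04, adjusted p = 8.89e-06) and by 0.55 against the other knockouts (adjusted p = 2.40e-07). In RPE *Chp1* ran from 3366 to 7031 in B6 WT and from 2494 to 4781 in *Mertk*-/-V1, at a log2 fold change of -0.40 (adjusted p = 0.740). The ranges overlapped, but in 6 of 6 pairs of the same replicate number the *Mertk*-/-V1 library was the lower. With the replicate number as a block, a pairing the labels do not state, *Chp1* was called in RPE (SE 0.08, limma adjusted p = 0.0390). With replicates 1 to 3 against 4 to 6 as the term instead, limma did not call it (adjusted p = 0.272).

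*Itpka* and *Pla2g4e* were below the filter in BMDMs and were tested in RPE alone. *Itpka*, which phosphorylates inositol trisphosphate, ran from 3.70 to 16.8 in B6 WT RPE (median 8.67) and from 27.7 to 53.5 in *Mertk*-/-V1 (median 34.1), beside 10.5, 10.2 and 19.8 in *Mertk*-/-V2 and 12.3, 13.7 and 9.25 in *Mertk*-/-V3. All 6 *Mertk*-/-V1 libraries lay above all others. The log2 fold change was 2.00 against B6 WT (SE 0.36, adjusted p = 0.0139) and 1.46 against the other knockouts, where it was not called (adjusted p = 0.170). Without the 3 libraries richest in rod RNA it was 1.91 against B6 WT and no longer called (adjusted p = 0.0661). *Pla2g4e*, a cytosolic phospholipase that makes N-acyl lipids, spread widely. It ran from 5.83 to 27.5 in B6 WT RPE and stood at 24.1, 27.5, 34.8, 66.4, 449.5 and 304 in *Mertk*-/-V1 replicates 1 to 6. The 2 highest were replicates 5 and 6, the libraries with the highest rod sums. Its log2 fold change of 2.44 was not called (SE 0.82, adjusted p = 0.421) and stood at 1.32 without the 3 libraries richest in rod RNA (adjusted p = 0.513). With the rod sum as a covariate in the model it was 2.10 and called (adjusted p = 0.0455).

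RPE replicates 1 to 3 held 23417838 to 34124049 reads in the B6 WT and *Mertk*-/-V1 groups and replicates 4 to 6 held 14137666 to 20779930, so the RPE calls were repeated within each set. *Exd1* had a log2 fold change of 1.42 in replicates 1 to 3 and of 1.49 in replicates 4 to 6. *Gchfr* had 1.92 and 1.70, and *Ivd* -0.73 and -1.06. *Itpka* had 1.02 and 2.98. All 4 members kept their direction in both sets, but with 3 libraries a group 0 members were called in the first set, beside 13 of 18625 genes, and 1, *Itpka*, in the second (adjusted p = 0.0166), beside 12 of 18996 genes. With the set as a term over the 12 B6 WT and *Mertk*-/-V1 libraries all 4 were called, at adjusted p of 0.000803 for *Exd1*, 0.00645 for *Gchfr*, 0.00155 for *Ivd* and 0.0216 for *Itpka*.

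Among members of mitosis and cilia (*Bub1b*, *Haus2*, *Nusap1*, *Oip5*, *Stard9* and *Ttbk2*), *Haus2* moved in *Mertk*-/-V1 BMDMs and *Bub1b* in BMDMs of all 3 knockouts. *Haus2* is a subunit of augmin, which seeds microtubules within the spindle. *Haus2* (ENSMUSG00000027285, bases 120609383 to 120621560) had 385, 399 and 438 in B6 WT BMDMs and 696, 663 and 648 in *Mertk*-/-V1, beside 449, 395 and 478 in *Mertk*-/-V2 and 323, 420.0 and 382 in *Mertk*-/-V3. It rose by 0.72 (SE 0.10, adjusted p = 0.000829) and stood above every other library. In RPE its 6 *Mertk*-/-V1 libraries, at 375 to 473, lay below the 6 of B6 WT, at 474 to 555, without a call (log2 fold change -0.28, adjusted p = 0.197), though DESeq2 called it. The *Mertk*-/-V3 libraries in RPE, at 390.4, 370.4 and 443, lay below B6 WT as well. *Stard9*, a kinesin of dividing cells, rose by 0.39 in *Mertk*-/-V1 BMDMs (1107, 1162 and 1283 to 1581, 1775 and 1314, adjusted p = 0.0437). Its *Mertk*-/-V2 libraries reached 1676, and it was not called against the other knockouts (adjusted p = 0.610). The *Stard9* call was lost without *Mertk*-/-V1 replicate 1 or 2 or B6 WT replicate 1 or 2. *Stard9* and *Cdan1* overlap on opposite strands, and whether the counting used strand is not given in the sources used here, so their reads may not be fully apart.

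*Bub1b* encodes BUBR1, a kinase of the spindle checkpoint that holds back anaphase. It had 2720.3, 2637 and 2527 in B6 WT BMDMs, 2209, 2221 and 2107 in *Mertk*-/-V1, 2122, 2269 and 2376 in *Mertk*-/-V2 and 2193, 2271 and 2262 in *Mertk*-/-V3. All 9 knockout libraries lay below all 3 of B6 WT, with falls of 0.27 (adjusted p = 0.00559), 0.22 (adjusted p = 0.0225) and 0.23 (adjusted p = 0.0361). The 3 comparisons share the B6 WT libraries. Against the other knockouts the log2 fold change of *Mertk*-/-V1 was -0.05 (95% interval -0.13 to 0.04, adjusted p = 0.718). In RPE *Bub1b* ran from 383 to 652 in B6 WT and from 358 to 977 in *Mertk*-/-V1, without a call. Without the 3 RPE libraries richest in rod RNA its log2 fold change against B6 WT was 0.60 (limma adjusted p = 0.129). Of 12 mitotic genes outside the stretch, 8 were lower in *Mertk*-/-V1 BMDMs (*Cdc20*, *Birc5*, *Cdk1*, *Top2a*, *Cenpf*, *Bub1*, *Ccna2* and *Plk1*, median of all 12 -0.26), 2 in *Mertk*-/-V2 and 3 in *Mertk*-/-V3. *Bub1* lies farther along the same 129P2 segment, before *Plcb1*. Against the other knockouts 0 of the 12 were called by limma, and their median was -0.01. In RPE 0 of the 12 were called, with medians of -0.14, -0.90 and -1.02 in the V1, V2 and V3 knockouts.

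In membrane traffic (*Srp14*, *Vps18*, *Vps39*, *Zfyve19*, *Ehd4*, *Snap23* and *Tmem87a*) 2 members were called in *Mertk*-/-V1 BMDMs, both higher. *Snap23*, a SNARE that lets vesicles fuse with the plasma membrane, rose by 0.37 from 2132, 2189 and 2449 to 3093, 2808 and 2855 (adjusted p = 0.0173). *Tmem87a*, a membrane protein of the Golgi, rose by 0.25 from 828, 882 and 907 to 1022, 995 and 1097 (adjusted p = 0.0487). Both were called against the other knockouts too, at 0.36 (adjusted p = 0.0245) and 0.33 (adjusted p = 0.0136). Against B6 WT *Snap23* lost its call without *Mertk*-/-V1 replicate 1 or 3 or B6 WT replicate 1 or 2, and *Tmem87a* without any one *Mertk*-/-V1 library or B6 WT replicate 1 or 2. Of the stress, death and protein turnover genes (*Eif2ak4*, *Bmf*, *Ubr1* and *Capn3*), *Bmf* was called. It encodes a BH3-only protein that promotes apoptosis. In BMDMs it fell by 0.72, from 76.5, 84.8 and 102 to 63.4, 49.0 and 46.1 (adjusted p = 0.0195), and by 0.88 against the other knockouts, which stood at 80.7 to 118 (adjusted p = 0.00574). The *Bmf* call against B6 WT was lost without *Mertk*-/-V1 replicate 2 or 3 or B6 WT replicate 2. *Fsip1*, *Lrrc57* and *Tmem62*, which fit none of these groups, were not called.

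*Mertk*-/-V2 and *Mertk*-/-V3, which carry B6 copies of the 51 genes, gave fewer calls. In BMDMs 4 members were called in *Mertk*-/-V2 (9.76%, where 4.61% of all genes were called) and 1, *Bub1b*, in *Mertk*-/-V3 (2.44%, where 1.17% were). In *Mertk*-/-V2 these were *Bub1b*, *Srp14* and *Chp1*, lower, and *Ino80*, higher. *Srp14*, a subunit of the signal recognition particle, went from 1968, 1886 and 1789.6 to 1616, 1677 and 1561 (log2 fold change -0.22, adjusted p = 0.0287). *Chp1* went to 2002, 2031 and 1964 (-0.15, adjusted p = 0.0324), opposite in sign to *Mertk*-/-V1. *Ino80*, the motor of a chromatin remodelling complex, went from 835, 782 and 831 to 1004, 901 and 985 (0.24, adjusted p = 0.0276). None of these 4 was a DEG. All 4 were lost without *Mertk*-/-V2 replicate 1, B6 WT replicate 1 or B6 WT replicate 2, and *Bub1b* in *Mertk*-/-V3 without any one *Mertk*-/-V3 library or B6 WT replicate 1 or 2.

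In RPE limma called 0 of 49 members in *Mertk*-/-V2 and 0 of 49 in *Mertk*-/-V3. An unadjusted p under 0.05 was reached by 1 member in *Mertk*-/-V2, beside 1031 of 18832 genes. In *Mertk*-/-V3 it was reached by 7, beside 2083 of 18832 genes. For each comparison 0.0690% of all genes were called. The median size of the log2 fold change was 0.09 in *Mertk*-/-V2 (0.15 for all genes) and 0.24 in *Mertk*-/-V3 (0.23 for all genes). edgeR and DESeq2 also called 0 members in each. With B6 WT and *Mertk*-/-V1 both cut to replicates 1 to 3, 16 of 49 members (32.7%) were called in *Mertk*-/-V3, where 4088 of 18625 genes (21.9%) were. With both cut to replicates 4 to 6, limma called 0 members, where 3 of 18996 genes (0.0158%) were. The labels do not say whether the *Mertk*-/-V2 and *Mertk*-/-V3 libraries were made with either set of B6 WT libraries, so a batch and the genotype cannot be told apart there.

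**Figure D3:**
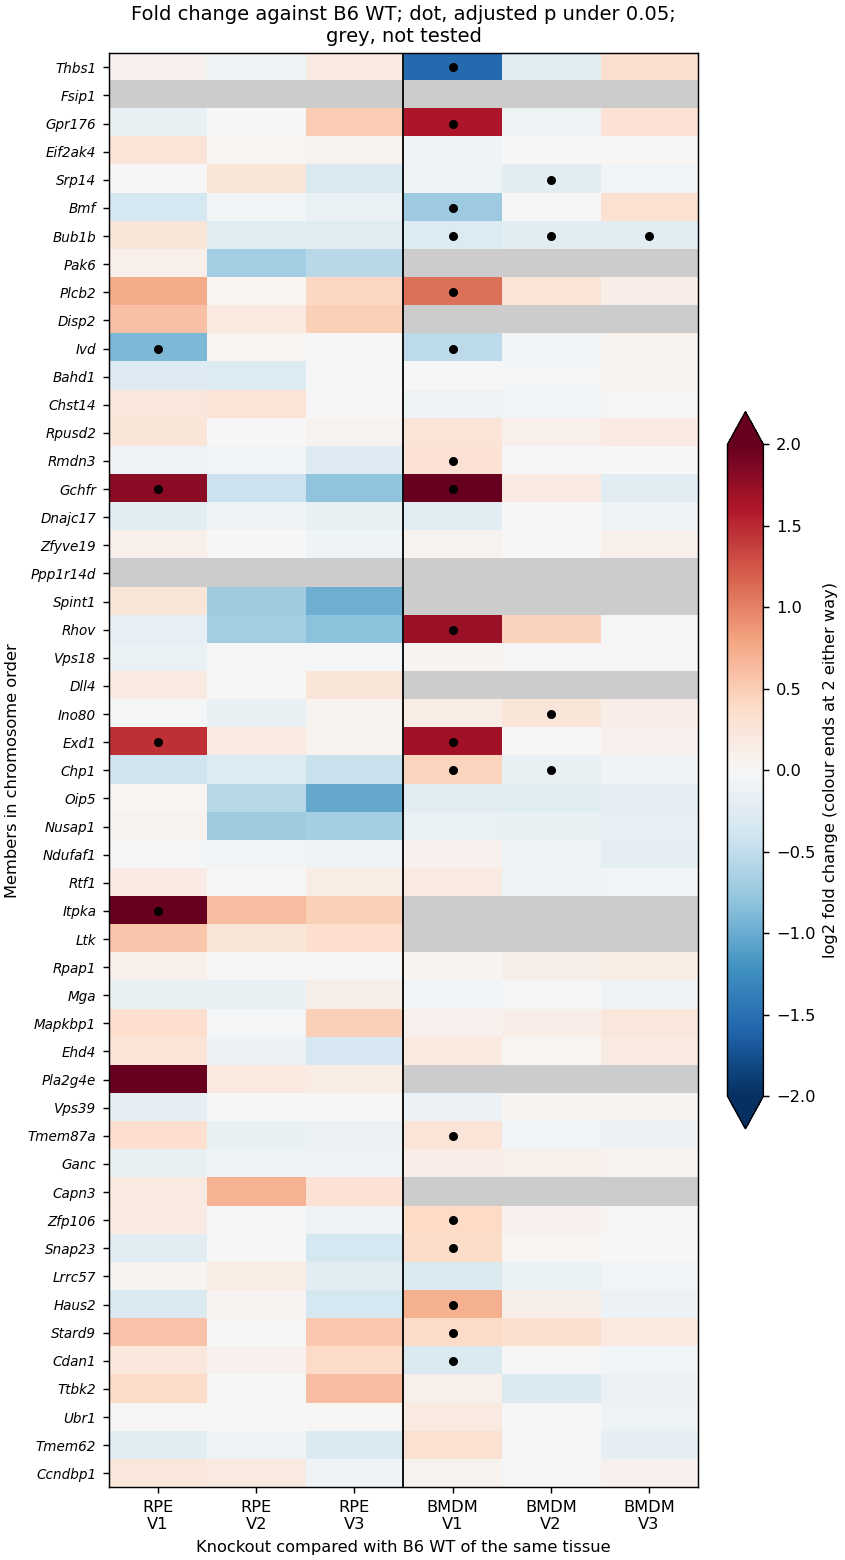
Log2 fold change against B6 WT of the same tissue for all 51 members in chromosome order (rows) in the 3 knockouts of RPE (left) and BMDMs (right), with red for higher, blue for lower, grey for not tested and a dot for an adjusted p under 0.05. The dots number 4, 0 and 0 in RPE and 17, 4 and 1 in BMDMs for the 3 knockouts in the order V1, V2, V3.

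Between the tissues, 41 members were tested in both, and 21 of them had the same sign in *Mertk*-/-V1 RPE and *Mertk*-/-V1 BMDMs. *Gchfr*, *Exd1* and *Ivd* were called in both, with the same direction. They were all of the 3 called in RPE among these 41 and 17.6% of the 17 called in BMDMs. Of those 17, 8 had the same sign in RPE and 9 the opposite. Across the 41 genes Pearson's r of the log2 fold changes was 0.58 and Spearman's rank coefficient 0.18. This is a correlation across neighbouring genes, which are not independent replicates. In the comparison with the other knockouts, 25 of 41 had the same sign, and of the 15 called in BMDMs 10 had the same sign in RPE.

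**Figure D4:**
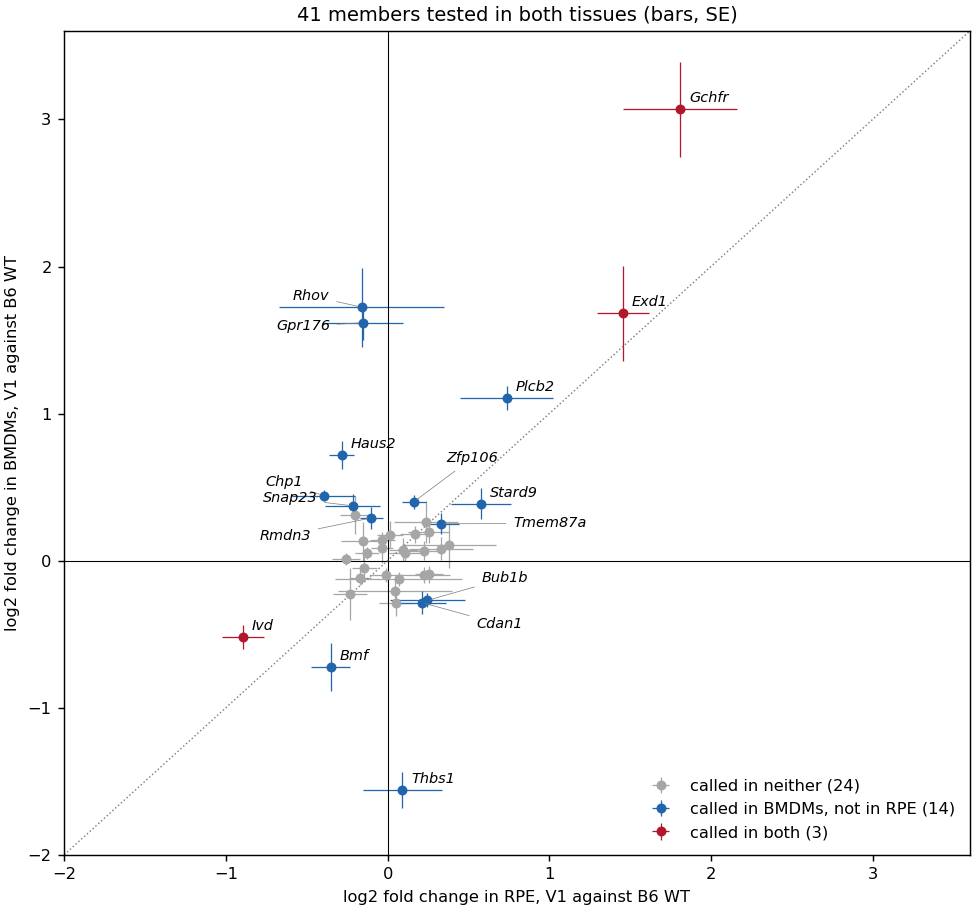
Log2 fold change of *Mertk*-/-V1 against B6 WT in RPE (horizontal) and BMDMs (vertical) for the 41 members tested in both tissues, with the SE as bars and the line of equal change dotted. Of these, 3 were called in both (red), 14 in BMDMs and not in RPE (blue) and 24 in neither (grey).

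The difference itself was tested as 1 interaction term in edgeR on the recovered reads of all 30 libraries, where 0.177% of 19739 genes were called. Of the 49 members tested, 2 were called. The *Mertk*-/-V1 effect on *Haus2* was lower in RPE than in BMDMs by 1.00 on the log2 scale (adjusted p = 0.000175), and this held under all 35 alternatives. That of *Gpr176* was lower in RPE by 1.72 (adjusted p = 0.0383), and this held under 10 of 35, among the losses any one BMDM library of B6 WT or *Mertk*-/-V1. For *Thbs1* the RPE effect was higher by 1.72 and missed the threshold (adjusted p = 0.0625). DESeq2 called it, as did the fit of RPE replicates 1 to 3. For *Gchfr*, *Exd1* and *Ivd* the differences were -1.22 (adjusted p = 0.680), -0.24 (adjusted p = 1.00) and -0.35 (adjusted p = 0.855). For *Rhov* it was -2.07 (adjusted p = 0.467) and for *Chp1* -0.84 (adjusted p = 0.403). With the replicate number as a block edgeR called *Chp1* (adjusted p = 0.000975). That block joined RPE and BMDM libraries by number, which the labels do not pair, so it cannot decide whether *Chp1* differed. Of the members named here, *Haus2* alone kept a called difference under every alternative.

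The members were also set beside other genes of the region in the comparison of *Mertk*-/-V1 with B6 WT. In BMDMs 41.5% of the members tested were called, 1 of 12 other genes of the stretch (8.33%), 32 of 134 genes beyond *Ccndbp1* as far as *Plcb1* (23.9%), 71 of 851 on the rest of chromosome 2 (8.34%) and 828 of 12379 on other chromosomes (6.69%). In RPE the shares were 8.16% for members, 6.25% for other genes of the stretch, 5.45% beyond it as far as *Plcb1*, 0.0844% for the rest of chromosome 2 and 0.333% elsewhere. Against the mean of the other knockouts in BMDMs they were 36.6%, 0.00%, 17.2%, 1.18% and 0.687%. In RPE that comparison gave 6.12%, 12.5% (2 of 16), 3.03%, 0.169% and 0.155%, so there the members' share was below that of the other genes of the stretch. Those 16 include *Tyro3* and *Chac1*, which the rule left out of the members. The mean count of *Tyro3* in RPE was 1389 in *Mertk*-/-V1, 3398 in B6 WT, 3087 in *Mertk*-/-V2 and 2902 in *Mertk*-/-V3. The differences between these shares were not tested.

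Some members start close to a neighbour on the opposite strand. There were 5 such pairs within 1000 bases. The starts of *Exd1* and *Chp1* lie 70 bases apart. In *Mertk*-/-V1 BMDMs both rose, by 1.68 and 0.44, while in RPE *Exd1* rose by 1.46 and *Chp1* had a log2 fold change of -0.40, called with the replicate block alone. *Haus2* and *Lrrc57* overlap at their starts, and in BMDMs *Haus2* rose by 0.72 beside -0.29 for *Lrrc57*, which was not called. *Tmem87a* rose by 0.25 in BMDMs beside 0.13 for *Ganc*. In the pairs of *Oip5* with *Nusap1* and of *Dnajc17* with *Zfyve19* no gene was called. *Haus2* reads within the overlap cannot be told from those of *Lrrc57* if the counting did not use strand.

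The partners of other members were counted from lists that hold none of the 51 genes. Of 6 tetrahydrobiopterin genes beside *Gchfr*, 5 were tested in BMDMs and 1, *Spr*, was lower, with log2 fold changes of -0.30 in *Mertk*-/-V1 (adjusted p = 0.00612) and -0.28 in *Mertk*-/-V2 (adjusted p = 0.0119). *Gch1*, whose product the *Gchfr* product binds, was not called. In RPE 0 of 6 were called by limma. Of 9 genes of inositol trisphosphate beside *Plcb2* and *Itpka*, 1 was called, *Itpkb* in *Mertk*-/-V1 BMDMs (0.21, adjusted p = 0.0271). Of 9 genes of the response to eIF2alpha kinases beside *Eif2ak4*, *Trib3* rose in all 3 knockouts of BMDMs, by 0.91, 1.01 and 0.85, and *Asns* in *Mertk*-/-V2, by 0.36. Of 8 genes of thrombospondin biology, 6 were tested in BMDMs and *Itgb3*, an integrin subunit, was higher in *Mertk*-/-V1 (0.32, adjusted p = 0.0369) and lower in *Mertk*-/-V3 (-0.45, adjusted p = 0.0224). None of the 6 partners of *Vps18* and *Vps39* in the HOPS and CORVET complexes was called in either tissue. In RPE none of these partner genes was called.

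The members left untested in BMDMs were near the floor. *Fsip1* had 12, 16 and 8 reads in B6 WT libraries and 1, 0 and 3 in *Mertk*-/-V1, beside 5, 2 and 9 in *Mertk*-/-V2 and 4, 11 and 14 in *Mertk*-/-V3. *Spint1* had 4, 7 and 1 reads in B6 WT and 0 in each *Mertk*-/-V1 library, which allows up to 3 reads' worth per library. *Itpka* had 15, 5 and 4 reads in B6 WT and 4, 7 and 4 in *Mertk*-/-V1. *Capn3* had 2 to 15 reads per library, and *Pak6*, *Disp2*, *Dll4* and *Ltk* had 0 to 2 each and *Ppp1r14d* 0 to 1. *Pla2g4e* had 0 reads in 11 of the 12 libraries and 2 in *Mertk*-/-V3 replicate 2. In RPE *Fsip1* had 0 to 7 reads per library and *Ppp1r14d* 0 to 14.

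The members tested and not called in *Mertk*-/-V1 against B6 WT numbered 24 in BMDMs, with log2 fold changes from -0.29 to 0.31, and 45 in RPE, from -0.40 (*Chp1*) to 2.44 (*Pla2g4e*). By level per kilobase of exon in B6 WT, the highest members in BMDMs were *Ehd4*, an ATPase of endosome recycling, at a mean of 2898 normalised counts per kilobase and *Srp14* at 1574, followed by *Chp1* at 634 and *Vps18*, a shared subunit of the HOPS and CORVET complexes, at 629.5. In RPE the order after *Thbs1* was *Chp1* at 1400.5, *Srp14* at 1285 and *Ivd* at 649.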

How the data were processed

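PolyA RNA was sequenced as 150 bp pairs. The authors trimmed reads with btrim, aligned them with STAR to GRCm38 and normalised them with DESeq2, all with versions not given in the sources used here. The read counter, annotation release and strandedness are likewise not given. The authors deposited 1 table of signal values per tissue, which are read counts divided by a size factor per library. Dividing by the step of 1 read gave whole reads for 100.0% of values within 0.01.

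Values were tested as log2(value + 1) with limma 3.58.1 (R 4.3.3) over all 4 genotypes of a tissue, for genes with a mean of at least 10, with Benjamini-Hochberg adjustment over all of them. The difference between tissues was tested on recovered reads with edgeR 4.0.16 (quasi-likelihood, TMM). DESeq2 1.42.0 was an alternative. The plain limma, edgeR and DESeq2 fits and the edgeR interaction were tested on simulated data. The variants with a block, set, covariate or array weights were not. Tests are two-sided, and their p-values measure the spread between biological replicates as labelled.

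Positions came from GENCODE mouse release 21 on GRCm38, which matched 55480 of the 55573 IDs. The members described with values are those called in any comparison or in the difference between tissues, plus *Thbs1*, *Gpr176*, *Gchfr*, *Rhov*, *Exd1*, *Itpka* and *Pla2g4e*, chosen because the study names them. The members and lists were chosen with earlier results of these data known. Deviations from the group means correlated above 0.1 in all 6 same-numbered pairs of B6 WT and *Mertk*-/-V1 RPE (0.119 to 0.724). Replicate numbers were therefore taken to pair these, a hint from the data since the labels state no pairing. Pairs of unlike number ran from 0.299 to 0.665 within replicates 1 to 3 and from -0.181 to 0.744 within 4 to 6. Whether the numbers mark pairs or only these sets was not tested. The block was fitted over all 4 genotypes, so it joined the other knockouts by number too. In every other comparison at least 1 pair was under 0.1, and the numbers were not taken to pair samples. Limits on counts at 0 cover counting error only.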

Additional observations from a re-analysis of the deposited data

Results flagged for a closer look

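Single libraries stood apart in 3 of the 44 gap tests made in groups of 4 or more for the 22 members described with values, and chance gives about 1 in 20. *Gpr176* was at 202 normalised counts and *Zfp106* at 7274 in *Mertk*-/-V1 RPE replicate 5, each far above the other libraries of the group. That library also had the highest rod marker sum, 811679, and the part of rod RNA was not tested. *Tmem87a* was at 1912 in B6 WT RPE replicate 1, above the other B6 WT libraries.

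The *Mertk*-/-V1 effect differed between the tissues by the edgeR interaction for 2 members. It was lower in RPE than in BMDMs by 1.00 on the log2 scale for *Haus2* (RPE minus BMDM -1.001) and by 1.72 for *Gpr176* (RPE minus BMDM -1.72).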

How the results depend on the processing

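No call on a member changed direction under any alternative, out of 761 refits of 46 calls. Of these, 628 stayed called and 133 did not, and 21 calls held throughout. The counts of members called moved as follows, and the cause was not tested. Leaving out 1 library in BMDMs gave 12 to 16 in *Mertk*-/-V1 against B6 WT, beside 243 to 1200 of all genes tested. Against the other knockouts it gave 9 to 17, beside 74 to 266 genes. It gave 0 to 6 in *Mertk*-/-V2, beside 148 to 1168 genes, and 0 to 1 in *Mertk*-/-V3, beside 33 to 249. In RPE it gave 3 to 4 in *Mertk*-/-V1 against B6 WT, beside 54 to 89 genes. Against the other knockouts it gave 3 to 4 there, beside 23 to 186 genes. *Mertk*-/-V2 and *Mertk*-/-V3 in RPE gave 0 to 0, beside 6 to 12 and 5 to 16 genes. The difference between tissues gave 1 to 3, beside 14 to 55 genes. With the fold threshold of the study 5 members were called in each *Mertk*-/-V1 comparison in BMDMs and 0 in *Mertk*-/-V2 and *Mertk*-/-V3. In *Mertk*-/-V2 BMDMs 1 was called with no filter (1.96%, beside 1.28% of all genes) and 0 with only the groups compared (beside 0.515%). In *Mertk*-/-V3 BMDMs 7 (17.1%, beside 12.6% of all genes) were called with array weights. With no filter 0 were (beside 0.387%), and with only the groups compared 2 were (4.88%, beside 4.17%).

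In RPE, *Mertk*-/-V1 against B6 WT gave 0 in replicates 1 to 3 (beside 0.0698% of all genes) and 1 in replicates 4 to 6 (2.04%, beside 0.0632%). It gave 7 with array weights (14.3%, beside 0.802%) and 2 with only the groups compared (4.08%, beside 0.298%). With DESeq2 6 were called (12.2%, beside 1.07%) and with the rod covariate 6 (12.2%, beside 1.33%). Without the 3 libraries richest in rod RNA 5 were (10.2%, beside 0.568%). Against the other knockouts it gave 11 in replicates 1 to 3 (22.4%, beside 11.5% of all genes). In replicates 4 to 6 it gave 1 (2.04%, beside 19 of 18996 genes). It gave 6 with DESeq2 (12.2%, beside 0.791%), 17 with array weights (34.7%, beside 28.9%) and 6 with the rod covariate (12.2%, beside 0.834%). Without the 3 libraries richest in rod RNA, a choice made after seeing the data, it gave 7 (14.3%, beside 3.76%). *Mertk*-/-V2 gave 1 (2.04%, beside 4.57%) with array weights, and *Mertk*-/-V3 gave 16 (32.7%, beside 21.9%) in replicates 1 to 3 and 34 (69.4%, beside 66.9%) with array weights. The largest of these RPE counts, 11 to 34, came in fits that called 11.5% to 66.9% of all genes. In *Mertk*-/-V1 against B6 WT the share of members did not follow that of all genes between the replicate sets. The difference between tissues gave 5 in replicates 1 to 3 (10.2%, beside 0.233%) and 1 in replicates 4 to 6 (2.04%, beside 0.147%).

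With a replicate block *Mertk*-/-V1 against B6 WT in RPE, where the numbers were taken to pair the samples, gave 5 members and lost none. That is 10.2%, beside 0.696% of all genes. Elsewhere the numbers were not so taken. There the BMDM counts were 1 for *Mertk*-/-V2 (2.44%, beside 2.27% of all genes) and 0 for *Mertk*-/-V3 (beside 0.574%). *Cdan1*, *Stard9* and *Tmem87a* in *Mertk*-/-V1 and *Snap23* against the other knockouts were lost. In RPE the block gave 3 in *Mertk*-/-V2 (6.12%, beside 3.75% of all genes), 18 in *Mertk*-/-V3 (36.7%, beside 29.8%) and 12 in *Mertk*-/-V1 against the other knockouts (24.5%, beside 12.4%). Members with a mean under 10, such as *Fsip1*, were left out by the filter, and few reads limit what a test of them can show.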
